A study of Mus musculus with 20 samples.

Results

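The response of pretreated macrophages to 6 h of inflammatory stimulation was measured in 4 of the 20 RNA libraries of a mouse time course. The 4 libraries are those labelled DI at 0 h (replicates 1 and 2) and DI at 6 h (replicates 1 and 2), chosen by their column names in the deposited count table, and all genes were compared. The cells were bone marrow-derived macrophages of wild-type C57BL/6 mice, grown for 7 days in RPMI medium with macrophage colony-stimulating factor (M-CSF). Both DI groups had received 250 µM dimethyl itaconate for 12 h, so the 0 h group is pretreated and unstimulated, and the 6 h group had in addition 6 h of lipopolysaccharide (LPS) with interferon gamma (IFNg). The treatment label of these samples spells the compound Demethyl Itaconate, whereas the protocols name dimethyl itaconate. Doses of LPS and IFNg are not given in the sources used here. Control (Ctrl) macrophages at 0 and 6 h, 2 libraries each, had the same culture and stimulus without the compound. Whether the 2 libraries of a group came from separate animals or cultures is not labelled. The p-values rest on the spread between libraries of a group, estimated over all 20 libraries of the course. That spread may be technical.

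LPS is a bacterial outer membrane component recognised by TLR4 with its co-receptors CD14 and MD-2, and it starts the MyD88 and TRIF signalling branches that activate NF-kB, MAP kinases and IRF3. NF-kB first induces a primary set of genes that need no new protein synthesis, among them Nfkbiz, whose product IkBz is needed for a secondary set such as Il6 and Il12b. IFNg signals through JAK kinases to induce Irf1, the guanylate-binding proteins and antigen presentation, and IFNb released after TRIF signalling adds a further interferon response. Dimethyl itaconate is an electrophilic ester related to itaconate, the metabolite that activated macrophages make with the enzyme encoded by Acod1, and electrophiles of this kind are known to activate the transcription factor NRF2.

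The 4 libraries held 3982073 to 6725447 counts, against 3655977 to 8938983 in the 4 Ctrl libraries at 0 and 6 h. Between 11143 and 12356 of the 22165 genes of the table were at 0 in the pretreated libraries and between 9301 and 10859 in the Ctrl libraries, with the most in replicate 2 of DI at 6 h. The number of reads per original molecule was estimated from genes of few expected reads that were at 0. Expected reads came from the other libraries of the same treatment at all times. Genes off at 1 time and spread between libraries therefore also raise this estimate. It was 3.58 to 9.54 in the pretreated libraries and 2.01 to 3.31 in the Ctrl ones. To the extent that reads are copies of the same molecule, low levels carried more counting error here than the totals alone would give. Fold bounds and counting intervals below take each read as a molecule, so the bounds are set too high and the intervals are too narrow. Pearson correlation of log2 levels between the 2 libraries was 0.928 at 0 h and 0.921 at 6 h across genes. In Ctrl cells it was 0.981 and 0.970, so the pretreated libraries, which share 1 fit with these, were more spread. Levels are counts per 1000000 (CPM) of a library total adjusted by edgeR's TMM factors. The macrophage label was compared with marker genes: the 12 macrophage markers summed to 5251 and 4311 CPM at 0 h and 6669 and 5705 CPM at 6 h, 5 of them were called higher, and none was at 0. The 11 neutrophil markers summed to 423 and 452 CPM at 0 h and 652 and 459 CPM at 6 h, and 1 of the 10 tested, Csf3r, was called higher. S100a8 was at 142.6 and 82.07 CPM at 0 h and 250.3 and 148.6 at 6 h, and S100a9 at 204.3 and 298.5, then 297.4 and 201.9. The granule gene Ngp was at 35.17 and 19.71 CPM at 0 h and 24.87 and 21.24 at 6 h. Ltf and Camp had counts in all 4 libraries, while Ly6g was at 0 in 3 of the 4. Marker sums of the other cell types ran from 11.6 to 22.1 CPM for dendritic cells, 26.5 to 44.6 for stromal cells, and at most 11.6 for erythroid cells and megakaryocytes, 4.25 for B cells, 3.29 for mast cells and basophils, and 2.06 for T and NK cells. Among these Ccr7 was called higher, and so was Lck on counts in 1 library, at 2.06 CPM. Zbtb46 of dendritic cells, Cd3e of T cells, Pax5 of B cells and Hbb-bs of erythroid cells were at 0 in the 4 libraries. The part of neutrophil RNA in the results below was not tested.

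Promoters of 5 genes that rose are printed first, because their letters show which known binding motifs lie just before genes with some of the largest rises. Serpina3f and Heatr9 had the largest rises of the genes named by size below that held a motif match, and Il6, Cxcl1 and Cxcl10 were added after their values were seen. The sequences are the 250 bases before the annotated start, 5′ to 3′ on the gene's strand, from RefSeq on GRCm38.p6, and capitals mark motif matches on either strand, with overlapping matches run together.
Serpina3f, chr12:104214294-104214543, plus strand: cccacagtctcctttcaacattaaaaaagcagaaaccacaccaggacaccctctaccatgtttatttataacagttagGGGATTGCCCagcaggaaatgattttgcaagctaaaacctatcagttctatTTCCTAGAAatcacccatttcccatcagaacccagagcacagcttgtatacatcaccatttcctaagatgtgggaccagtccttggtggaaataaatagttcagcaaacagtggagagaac
Heatr9, chr11:83522100-83522349, minus strand: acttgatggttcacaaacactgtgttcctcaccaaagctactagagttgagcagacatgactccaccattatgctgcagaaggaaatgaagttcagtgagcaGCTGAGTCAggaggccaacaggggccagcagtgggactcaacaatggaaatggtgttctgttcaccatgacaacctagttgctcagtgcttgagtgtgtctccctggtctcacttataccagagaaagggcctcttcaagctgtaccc
Il6, chr5:30012864-30013113, plus strand: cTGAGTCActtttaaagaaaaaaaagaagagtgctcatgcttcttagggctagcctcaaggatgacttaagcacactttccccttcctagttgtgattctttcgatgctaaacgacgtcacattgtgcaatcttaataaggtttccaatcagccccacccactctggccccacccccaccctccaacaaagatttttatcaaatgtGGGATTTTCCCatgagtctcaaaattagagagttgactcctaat
Cxcl1, chr5:90890995-90891244, plus strand: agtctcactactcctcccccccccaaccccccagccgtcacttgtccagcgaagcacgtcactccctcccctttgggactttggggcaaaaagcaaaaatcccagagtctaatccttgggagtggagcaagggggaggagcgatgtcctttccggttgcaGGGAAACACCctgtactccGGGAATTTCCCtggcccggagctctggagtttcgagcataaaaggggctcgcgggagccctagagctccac
Cxcl10, chr5:92348890-92349139, minus strand: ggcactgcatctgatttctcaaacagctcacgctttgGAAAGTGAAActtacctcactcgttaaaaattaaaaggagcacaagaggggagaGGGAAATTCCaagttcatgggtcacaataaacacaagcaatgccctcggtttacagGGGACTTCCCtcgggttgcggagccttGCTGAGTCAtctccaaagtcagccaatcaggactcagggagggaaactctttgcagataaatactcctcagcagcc
The capitals in Serpina3f are an NF-kB motif (GGGA, 4 free bases, CC) 172 bases and a STAT motif (TTCNNNGAA) 121 bases before the start. In Heatr9 an AP-1 motif (TGANTCA) and an NRF2 motif (TGACNNNGC) share one run of letters, whose 2 matches start 146 and 148 bases before the start. Il6 held an NF-kB run 44 bases and an AP-1 motif 249 bases before its start, and Cxcl1 held NF-kB matches from 90 and from 71 bases. The Cxcl10 promoter held an interferon-stimulated response element (GAAA, 2 free bases, GAAA) at 213 bases, NF-kB matches at 159 and 103 bases, and a shared AP-1 and NRF2 run at 76 and 74 bases. Across the 100 called genes with the largest rise, of at least 20 CPM and with a promoter, 16% held the AP-1 motif, 11% the interferon element, 14% the STAT motif, 26% the NF-kB motif, 14% the NRF2 motif and 6% the E-box CACGTG. Among the 100 with the largest fall the shares were 2%, 1%, 6%, 25%, 9% and 13%, and among all 8484 tested genes with a promoter 4.28%, 3.05%, 6.13%, 22.1%, 12.2% and 8.77%. In the risen set the shares of all of these motifs but the E-box were above those in all promoters, and these differences were not tested. A match describes letters in this window and no occupied site.

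After 6 h of LPS and IFNg, pretreated macrophages raised chemokine, cytokine, NF-kB feedback and interferon-induced genes together, in several cases from no count at all. Of 38 replication genes 7 were called lower, and 1 with the compared libraries alone. Of 10663 genes tested, 2149 (20.2%) were called at an adjusted p under 0.05 by edgeR's quasi-likelihood test, 1199 (11.2%) higher and 950 (8.91%) lower. These shares higher and lower are the background for the list counts below. The lists were chosen with earlier results of these data known, so their counts describe the members and are no separate test. A change of at least 2-fold was fitted for 1078 of the higher and 894 of the lower genes, and the smallest called log2 fold change was 0.72 in size. Among called genes of at least 20 CPM, the libraries of both groups did not overlap for 1019 higher and 560 lower genes. The share without overlap among all tested genes was not counted. With 2 libraries a group, lack of overlap is frequent in unchanged genes too, so here and below it describes levels and is no separate test. Both 0 h libraries were at 0 for 58 of the genes called higher, and both 6 h libraries were at 0 for 103 of those called lower.

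The count depends on which libraries set the spread and the split on the scaling. With the 10 pretreated libraries alone 1243 genes were called (830 higher, 413 lower), and with the 4 compared libraries alone 1004 (680 higher, 324 lower). The median log2 fold change of all tested genes was −0.10 with TMM, −0.26 with TMM factors of genes of at least 32 CPM (1016 higher, 1248 lower) and −0.65 with scaling to total counts (722 higher, 2369 lower), so small changes of either sign are relative to the scaling. Leaving out 1 of the 4 libraries in turn gave 1495 to 1927 calls, of which 1320 to 1564 were among the 2149 in the same direction. The 3 pretreated libraries richest in genes at 0 were the second replicates at 2, 4 and 6 h. Leaving these 3 out gave 2081 calls, of which 1589 were among the 2149 in the same direction.

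**Figure D1:**
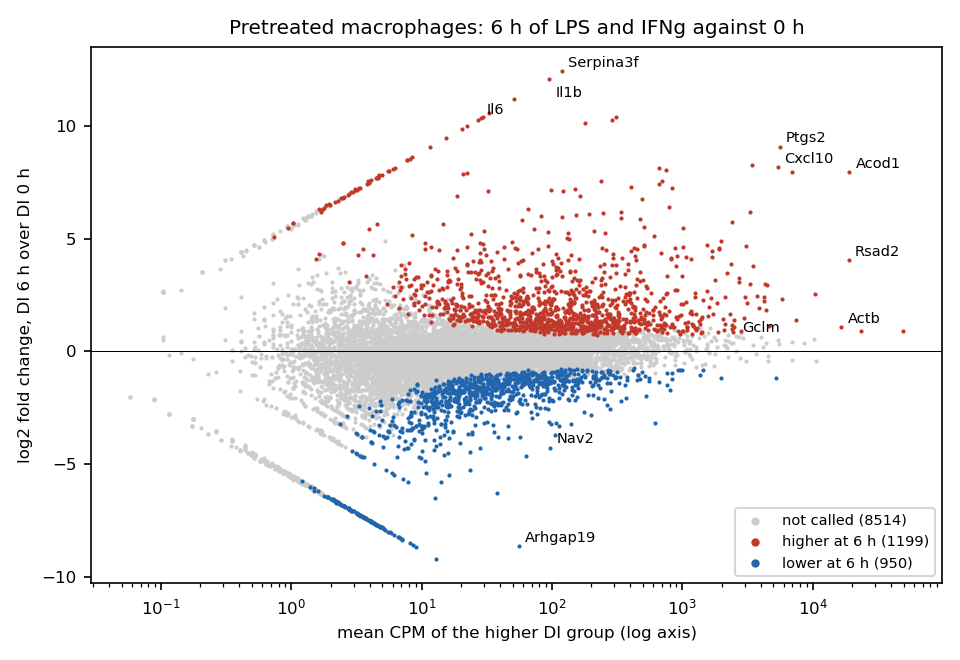
Log2 fold change of each tested gene in pretreated macrophages (6 h over 0 h, vertical axis) against the mean CPM of the higher of both groups (horizontal log axis); each point is a gene, red called higher (1199), blue called lower (950), grey not called, and genes with no count in the 4 libraries are not drawn. The lines of points running out to the upper and lower left are genes with no count in one group, whose fitted change is set by the level of the other.

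The primary NF-kB list rose as a whole: all 32 members tested were called higher, where 11.2% of all genes were, with a median log2 fold change of 4.08 against −0.10 over all genes. All 32 remained called in each alternative run, including the fits on the compared libraries alone and without any 1 library. Tnf, a cytokine that activates NF-kB in neighbouring cells, was at 8.48 and 10.3 CPM at 0 h and 862 and 717 at 6 h, an 83.7-fold rise (log2 6.39 ± 0.33, SE, edgeR adjusted p 6.03e-13). Its 2 libraries at 6 h lay far above both at 0 h. Icam1, an adhesion molecule for leukocyte integrins, was at 7.78 and 8.18 CPM at 0 h and 546 and 401 at 6 h (log2 5.89 ± 0.30). The gene of the prostaglandin synthase COX-2, Ptgs2, was at 13.8 and 7.15 CPM at 0 h and 4710.1 and 6431 at 6 h (log2 9.07 ± 0.45). Both genes rose without overlap between groups. Nfkbiz itself, the gene of IkBz, was at 4.59 and 4.03 CPM at 0 h and 104 and 165 at 6 h (log2 4.96 ± 0.32). The smallest rise of the list was that of Bcl2a1b (1.99 ± 0.38), an inhibitor of apoptosis, and its near-identical copy Bcl2a1d (4.79 ± 0.75) may share reads with it.

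Most genes that need IkBz were called higher, and 4 of them started from no count. Of 7 tested members, 6 were called higher and none lower (3 with the 10 pretreated libraries alone, 4 without replicate 2 of DI at 0 h), with a median of 7.69; with the 4 members that had a group at 0 set at their bound, the median was 3.12. Il6, a pyrogenic cytokine that drives the acute-phase response, was at 0 in both libraries at 0 h and 18.1 and 38.8 CPM at 6 h, at least 53.6-fold higher against a floor of 3 counts per library. Il12b, the p40 subunit of IL-12 and IL-23, was at 0 in both libraries at 0 h and 3.29 and 5.95 CPM at 6 h, at least 8.71-fold higher. Its call was lost in the fit of the 10 pretreated libraries alone. Edn1 (endothelin 1, a vasoconstrictor peptide) was at 0 in both libraries at 0 h and 11.1 and 19.8 CPM at 6 h, at least 29.2-fold higher. Ccl22, a chemokine for CCR4-bearing T cells, was at 0 in both libraries at 0 h and 11.9 and 4.81 CPM at 6 h, at least 15.8-fold higher. None of these 4 genes had a count in either 0 h library, and all were detected in both 6 h libraries. Ebi3, the shared subunit of IL-27 and IL-35, moved from 19.97 and 22.9 CPM to 42.5 and 38.8 CPM (log2 0.92 ± 0.28), a call that was lost without replicate 1 or without replicate 2 of DI at 0 h, without replicate 1 at 6 h, and with scaling to total counts. Lcn2, a siderophore-binding protein gene, was at 14.7 and 4.84 CPM at 0 h and 24.04 and 41.6 at 6 h (log2 1.77 ± 0.52), and its call was lost without replicate 2 of either time. Saa3, an acute-phase protein gene, was at 34.6 and 26.6 CPM at 0 h and 64.1 and 33.7 at 6 h and did not pass the test.

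Among 21 cytokine genes tested 14 were called higher and none lower, with a median of 3.86 (3.12 with groups at 0 set at their bound). Without replicate 1 of DI at 6 h 10 were called and the median was 1.19. Il1b, the inflammasome-processed pyrogen, was at 0 in both libraries at 0 h and 105 and 86.6 CPM at 6 h, at least 180.4-fold higher. Il1a, which acts on the same receptor, was at 2.12 and 0.576 CPM at 0 h and 211 and 264 at 6 h (log2 7.56 ± 0.50), and their natural antagonist Il1rn at 149.7 and 178 CPM at 0 h and 2644 and 2120.4 at 6 h (log2 3.86 ± 0.28). Agonists and antagonist of the IL-1 receptor thus all rose. Il27, the p28 subunit that pairs with EBI3, was at 2.12 and 2.997 CPM at 0 h and 501 and 313 at 6 h (log2 7.28 ± 0.40). Il15, which sustains natural killer cells, was at 37.1 and 26.3 CPM at 0 h and 363 and 407 at 6 h (log2 3.61 ± 0.28). Ifnb1, the gene of IFNb, was called as well, but its counts lay in 1 library, at 9.45 and 0 CPM at 6 h and 0 at 0 h, and without that library its fitted change was 0. Il10, the main anti-inflammatory cytokine of macrophages, was at 2.47 and 0.461 CPM at 0 h and 1.03 and 0 at 6 h and did not pass the test (log2 −1.19 ± 1.02). Il18, which the inflammasome also processes, was at 19.4 and 10.9 CPM at 0 h and 45.4 and 15.01 at 6 h. Tgfb1, an immunosuppressive cytokine, was at 21.7 and 32.3 CPM at 0 h and 17.3 and 11.04 at 6 h, and neither Il18 nor Tgfb1 passed the test. Il23a, the p19 partner of Il12b, had no count in the 4 libraries.

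Chemokine genes were called higher in 15 of 17 cases, with a median of 4.49 and none called lower. The neutrophil attractant Cxcl1 was at 0.5302 and 0 CPM at 0 h and 299.6 and 281 at 6 h; the pooled counts were 3 at 0 h and 2449 at 6 h, a ratio of 1393-fold (95% exact counting interval 476 to 6761). Cxcl2, with the same receptor, was at 23.9 and 32.5 CPM at 0 h and 5172 and 8709 at 6 h (log2 7.94 ± 0.39). The ligands of CXCR3, which attract activated T cells, rose as well. Cxcl10 was at 18.6 and 19.2 CPM at 0 h and 5867 and 4942 at 6 h (log2 8.16 ± 0.34, edgeR adjusted p 1.99e-14). Cxcl9 was at 8.13 and 13.7 CPM at 0 h and 2835 and 4013 at 6 h (log2 8.27 ± 0.46). Ccl5, an attractant of T cells and monocytes, was at 319 and 188 CPM at 0 h and 3854 and 3072 at 6 h (log2 3.77 ± 0.29). Pf4 (327 and 225 CPM at 0 h and 339 and 217 at 6 h) and Ccl6 (175 and 127 CPM at 0 h and 165 and 116 at 6 h) were the members that did not pass the test, and both overlapped between groups.

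Inhibitors that feed back on these pathways rose with them: 19 of 22 were called higher and 1 lower, with a median of 2.47. Socs1, which blocks JAK kinases, was at 13.1 and 9.45 CPM at 0 h and 539 and 481 at 6 h (log2 5.51 ± 0.31). Socs3, which restrains IL-6 receptor signalling, was at 2.47 and 0.576 CPM at 0 h and 204 and 125 at 6 h (log2 6.87 ± 0.51). Nfkbia, the gene of IkBa that returns NF-kB to the cytoplasm, was at 457 and 382 CPM at 0 h and 3284 and 3367 at 6 h (log2 2.99 ± 0.28). The deubiquitinase gene Tnfaip3 (A20) was at 46.1 and 56.6 CPM at 0 h and 254 and 188 at 6 h (log2 2.10 ± 0.35), a fold of 4.298. All 4 inhibitors were higher in each 6 h library than in each 0 h library. Dusp6, a phosphatase that acts on ERK, was called lower, at 125 and 105 CPM at 0 h and 49.3 and 45.9 at 6 h (log2 −1.28 ± 0.39), a call lost without replicate 1 of DI at 0 h and without each 6 h library in turn. Of 19 immediate-early genes, which respond within minutes and largely return to baseline, 6 were called higher and 2 lower, with a median of 0.47 (−0.08 with scaling to total counts). Klf6 (2.40 ± 0.26) and Junb (2.34 ± 0.32) were among the higher, and Fos (0.72 ± 0.45), Egr1 (−0.78 ± 0.39) and Atf3 (0.57 ± 0.27) did not pass the test. Myc, a driver of growth, was at 32.2 and 25.2 CPM at 0 h and 4.52 and 4.25 at 6 h (log2 −2.70 ± 0.56). Jun, an AP-1 subunit, was at 289 and 376 CPM at 0 h and 94.3 and 212 at 6 h (log2 −1.12 ± 0.30), whose call was lost without replicate 2 of DI at 0 h and without replicate 1 at 6 h.

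Interferon-induced genes rose broadly. Of 35 genes of the type I interferon list, 28 were called higher and none lower, with a median of 1.69. Rsad2 (viperin, an antiviral enzyme) was at 1079 and 1199.9 CPM at 0 h and 16022 and 21893 at 6 h (log2 4.06 ± 0.28), already high before the stimulus. Mx1, a dynamin-like antiviral GTPase, was at 70.5 and 81.03 CPM at 0 h and 736 and 795 at 6 h (log2 3.34 ± 0.28). Ifit1, which binds viral RNA caps, was at 360.2 and 480.0 CPM at 0 h and 2097 and 1593 at 6 h (log2 2.13 ± 0.35). Irf7 (592 and 679 CPM at 0 h and 999 and 902 at 6 h) was among the 7 that did not pass the test. The list of IFNg-induced GTPases and regulators had 20 of 21 called higher and a median of 4.36. Irf1, a transcription factor of the interferon response, was at 63.8 and 91.4 CPM at 0 h and 1621 and 1734 at 6 h (log2 4.43 ± 0.30). Gbp5, a guanylate-binding protein that promotes inflammasome assembly, was at 3.18 and 7.49 CPM at 0 h and 871 and 791 at 6 h (log2 7.24 ± 0.46). Iigp1, an immunity-related GTPase of vacuole defence, was at 55.1 and 36.5 CPM at 0 h and 2896 and 3708 at 6 h (log2 6.17 ± 0.34). All 3 were far higher in both 6 h libraries than in both 0 h libraries. The Gbp and Tgtp genes are families of close copies, so reads may be split between members. Irf8, a lineage factor of myeloid cells, was at 389 and 259 CPM at 0 h and 2646 and 2786 at 6 h (log2 3.07 ± 0.34). Ido1, which degrades tryptophan, was the member not called and had no count in the 4 libraries.

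Genes of antigen presentation were counted by class. For class I, 12 of 18 genes were called higher and none lower, with a median of 1.06; the count was 6 with scaling to total counts and also without replicate 2 of DI at 0 h, and 7 without replicate 1 at 6 h. Nlrc5, the transactivator of class I genes, was at 25.6 and 16.3 CPM at 0 h and 172 and 152 at 6 h (log2 2.96 ± 0.32). The peptide transporter gene Tap1 was at 74.05 and 52.1 CPM at 0 h and 356 and 289.9 at 6 h (log2 2.36 ± 0.29). Tapbp was at 516 and 458 CPM at 0 h and 1420.4 and 1391 at 6 h (log2 1.53 ± 0.26). For class II, 1 of 8 was called. That gene is Ciita, the class II transactivator, at 1.59 and 1.38 CPM at 0 h and 8.84 and 22.4 at 6 h (log2 3.37 ± 0.81), and its call was lost without replicate 2 of DI at 6 h. Its targets Cd74, the invariant chain, at 48.4 and 44.3 CPM at 0 h and 73.8 and 51.8 at 6 h, and H2-Ab1, a class II beta chain, at 56.7 and 27.2 CPM at 0 h and 66.8 and 43.9 at 6 h, did not pass the test.

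Effector genes of activated macrophages were called higher in 20 of 31 cases and lower in 1, with a median of 2.63. Nos2, the inducible nitric oxide synthase, was at 0.177 and 0.231 CPM at 0 h and 286 and 336 at 6 h; its pooled counts were 3 and 2575, a ratio of 1465-fold (95% exact counting interval 501 to 7109). Acod1, which makes itaconate from cis-aconitate, was at 62.9 and 93.6 CPM at 0 h and 15454 and 22811 at 6 h (log2 7.93 ± 0.39). The arginine transporter gene Slc7a2 was at 0.177 and 3.92 CPM at 0 h and 155 and 149 at 6 h (log2 6.06 ± 0.55). Cells already given an itaconate ester thus raised the gene of the itaconate-producing enzyme 244-fold. Cd40, a co-stimulatory receptor, was at 6.36 and 3.11 CPM at 0 h and 553 and 431 at 6 h (log2 6.73 ± 0.46), and the early activation antigen gene Cd69 at 0.353 and 1.498 CPM at 0 h and 160.5 and 142 at 6 h (log2 7.19 ± 0.41). Cd86, a ligand of CD28, was at 9.72 and 5.88 CPM at 0 h and 129 and 106 at 6 h (log2 3.93 ± 0.34). Cd80, the other ligand of CD28, was the member called lower, at 4.77 and 1.84 CPM at 0 h and 1.03 and 0 at 6 h (log2 −2.44 ± 0.86), a call lost without replicate 1 of DI at 0 h and without replicate 2 at 6 h. Among 26 receptor and adaptor genes of pathogen sensing, 15 were called higher and 1 lower. The latter is Tlr13, a sensor of bacterial ribosomal RNA, at 207 and 188 CPM at 0 h and 90.8 and 60.9 at 6 h (log2 −1.38 ± 0.32, lost without replicate 2 of DI at 6 h). The LPS co-receptor gene Cd14 was at 15.4 and 10.03 CPM at 0 h and 93.1 and 63.4 at 6 h (log2 2.63 ± 0.40). Nod1, a sensor of bacterial peptidoglycan, was at 3.53 and 3.11 CPM at 0 h and 71.7 and 83.5 at 6 h (log2 4.54 ± 0.39). Tlr4, the LPS receptor itself, was at 27.04 and 46.3 CPM at 0 h and 65.97 and 50.1 at 6 h and did not pass the test.

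NRF2 targets, which the compound is known to induce, were compared on top of the pretreatment, which both groups had received. Of 35 tested, 7 were called higher and 2 lower, where 11.2% and 8.91% of all genes were, with a median of 0.39. With scaling to total counts 2 were higher and 6 lower and the median was −0.17. The count of higher members was 3 without replicate 2 of DI at 0 h, where 1 was lower, and 4 without replicate 1 at 6 h. Gclm, a subunit of the enzyme that makes the glutathione precursor, was at 1544 and 1725 CPM at 0 h and 1930.3 and 3219 at 6 h (log2 0.66 ± 0.28, not called). Hmox1, heme oxygenase 1, was at 232 and 193 CPM at 0 h and 142 and 97.7 at 6 h (log2 −0.83 ± 0.30, edgeR adjusted p 0.0543), lower in both 6 h libraries than in both 0 h libraries without passing the test. Nqo1, a quinone reductase gene, was at 39.2 and 17.3 CPM at 0 h and 51.2 and 26.05 at 6 h and overlapped. The cystine transporter gene Slc7a11 was the largest of the 7 rises at 66.1 and 69.8 CPM at 0 h and 346 and 502 at 6 h (log2 2.64 ± 0.29), and Txn1, thioredoxin, was at 503 and 385 CPM at 0 h and 1281 and 911 at 6 h (log2 1.30 ± 0.26). Both are also induced by LPS in macrophages. Idh1, the cytosolic isocitrate dehydrogenase, was called lower at 134 and 65.5 CPM at 0 h and 17.9 and 26.6 at 6 h (log2 −2.16 ± 0.35).

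Of 24 genes of glycolysis and HIF1A targets, 7 were called higher and none lower, with a median of 0.62 (11 higher without replicate 1 of DI at 0 h). Hif1a, which drives glycolytic genes in activated macrophages, was at 43.3 and 68.9 CPM at 0 h and 187 and 231 at 6 h (log2 1.89 ± 0.28). The glucose transporter gene Slc2a1 was at 69.5 and 68.2 CPM at 0 h and 217 and 156 at 6 h (log2 1.44 ± 0.30). Pfkp, a phosphofructokinase, was at 35.3 and 32.6 CPM at 0 h and 166 and 106 at 6 h (log2 2.00 ± 0.39). All 3 rose without overlap, while the glycolytic enzyme genes Ldha (0.23 ± 0.31) and Pkm (0.55 ± 0.27) did not pass the test. The TCA cycle list had 1 of 25 called higher, Acod1, and 1 lower, Idh1. Without replicate 1 of DI at 0 h 3 were higher, without each of the other libraries in turn 2 were lower, and with scaling to total counts 7 were lower. Idh2, its mitochondrial counterpart, was at 15.9 and 11.9 CPM at 0 h and 1.64 and 7.36 at 6 h and did not pass the test. Nuclear genes of oxidative phosphorylation had 4 of 38 called higher, where 11.2% of all genes were, and none lower with a median of 0.33; no member was called higher with scaling to total counts, where the median was −0.23 and 3 were called lower, or without replicate 2 of either time, and 1 was without replicate 1 at 6 h.

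Sterol genes were low and thinly counted. Of 22 genes of cholesterol synthesis and uptake, 1 was called higher and 3 lower, where 11.2% and 8.91% of all genes were. The list median was −1.25, against −0.10 over all genes. The count called lower was 1 with the compared libraries alone and with the 10 pretreated libraries, 0 with counts divided by the estimated reads per molecule, 5 with limma-voom and without replicate 1 of DI at 6 h, and 7 with scaling to total counts. The median ran from −2.02 without replicate 1 of DI at 6 h to −0.67 with these divided counts. Idi1, an enzyme of cholesterol synthesis, was at 1.41 and 10.3 CPM at 0 h and 0 in both libraries at 6 h. With each read taken as a molecule Idi1 was at least 6.87-fold lower, and its call was lost without replicate 2 of DI at 0 h. Ch25h, which makes the oxysterol 25-hydroxycholesterol, was at 0 in both libraries at 0 h and 5.14 and 7.36 CPM at 6 h, at least 11.8-fold higher. It was 1 of 2 genes called higher among 11 LXR and efflux genes (1 without replicate 1 of DI at 0 h or replicate 2 at 6 h), with a list median of 0.33 (−0.21 with scaling to total counts).

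Several replication genes were called lower. Of 38 tested, 7 were called lower and 2 higher, where 8.91% and 11.2% of all genes were, with a median of −0.80. In Ctrl cells 11 of the 38 were called lower and 2 higher. The count called lower was 1 with the compared libraries alone, 3 with the 10 pretreated libraries, 2 without replicate 2 of DI at 0 h and 3 without replicate 2 at 6 h, and the median was −1.55 without replicate 1 at 6 h. Mcm2, a subunit of the replicative helicase, was at 8.84 and 5.302 CPM at 0 h and 0 in both libraries at 6 h. Against a floor of 3 counts per library Mcm2 was at least 8.32-fold lower, a bound that takes each read as a molecule. Its partner Mcm3 was at 12.4 and 19.7 CPM at 0 h and 7.398 and 5.38 at 6 h (log2 −1.32 ± 0.42). Top2a, a topoisomerase of dividing cells, was at 11.8 and 31.7 CPM at 0 h and 6.99 and 3.68 at 6 h (log2 −2.01 ± 0.48). The calls of Mcm3 and Top2a were both lost without replicate 2 of DI at 0 h, which held the higher level of both, and without replicate 2 at 6 h. Mcm6 (22.97 and 28.6 CPM at 0 h and 9.25 and 7.93 at 6 h), Rrm1 (6.54 and 15.8 CPM at 0 h and 1.85 and 3.96 at 6 h), Mki67 (5.66 and 12.9 CPM at 0 h and 4.32 and 0.849 at 6 h) and Cdc45 (1.06 and 3.11 CPM at 0 h and 0 in both libraries at 6 h) were the others called lower, and of these Mcm6, another helicase subunit, kept its call without any 1 library. The cyclin genes Ccne1 (4.77 and 2.31 CPM at 0 h and 54.05 and 86.9 at 6 h, log2 4.34 ± 0.48) and Ccnd2 (58.1 and 78.1 CPM at 0 h and 293 and 437 at 6 h, log2 2.42 ± 0.26) were the 2 that rose. Fewer cycling cells and less transcript per cell cannot be told apart in bulk RNA.

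Macrophage identity genes changed one by one. Of 26, 6 were called higher and 2 lower, with a median of 0.36 (−0.20 with scaling to total counts, where 3 were higher and 6 lower; 9 were higher without replicate 1 of DI at 0 h). Cebpa, a factor of the myeloid lineage, was at 27.4 and 12.4 CPM at 0 h and 6.37 and 4.53 at 6 h (log2 −1.85 ± 0.56), a call lost without replicate 1 of DI at 0 h and without replicate 2 at 6 h. Cebpb, the family member induced by inflammation, was at 413 and 388 CPM at 0 h and 2008 and 2244 at 6 h (log2 2.41 ± 0.30). Mertk, a receptor for apoptotic cells, was at 194 and 139 CPM at 0 h and 540.3 and 648 at 6 h (log2 1.84 ± 0.27). Csf1r, the M-CSF receptor, was at 221 and 131 CPM at 0 h and 301 and 256 at 6 h and did not pass the test (log2 0.66 ± 0.28).

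Genes of cell death and survival were called higher in 15 of 30 cases and lower in 1, with a median of 1.05. Cflar, which restrains caspase 8, was at 197 and 205 CPM at 0 h and 1616 and 1936 at 6 h (log2 3.14 ± 0.26). Birc3, an inhibitor of apoptosis, was at 25.4 and 19.7 CPM at 0 h and 170.2 and 133 at 6 h (log2 2.75 ± 0.29). Casp4 (caspase 11, the sensor of cytosolic LPS) was at 19.6 and 14.3 CPM at 0 h and 299 and 201 at 6 h (log2 3.89 ± 0.32). Nlrp3, an inflammasome sensor, was at 35.2 and 20.9 CPM at 0 h and 334 and 287 at 6 h (log2 3.48 ± 0.28). Members on the survival side and members on the death side were therefore both among those called. Bcl2, a survival gene, was the one called lower, at 27.7 and 21.1 CPM at 0 h and 2.47 and 4.53 at 6 h (log2 −2.82 ± 0.47). Metallothionein genes, which bind zinc, rose. Mt1 was at 100.2 and 59.2 CPM at 0 h and 402 and 356 at 6 h (log2 2.25 ± 0.31). Mt2 was at 11.7 and 4.73 CPM at 0 h and 147 and 120.0 at 6 h (log2 4.05 ± 0.49). In their list of 12, 4 were called higher and 1, the zinc importer gene Slc39a10 (37.5 and 111 CPM at 0 h and 15.6 and 13.9 at 6 h), lower.

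Housekeeping and stress groups held smaller changes, and many of their calls depended on single libraries or the scaling. Over all genes 11.2% were called higher and 8.91% lower, and several of the counts below lie near these shares. The 10 reference genes, counted last, had a median of 0.84 (0.29 to 0.84 over the settings run), with none called lower. That median was above those of the glycolysis (0.62), proteasome (0.55), NRF2 (0.39) and macrophage identity (0.36) lists. Endoplasmic reticulum chaperones had 3 of 24 called lower and none higher (median −0.55), with none called with the compared libraries alone and 1 without replicate 2 of DI at 6 h. The amino acid response list had 3 of 21 called higher and 2 lower. Psat1, of serine synthesis, was at 1.77 and 0.692 CPM at 0 h and 13.2 and 10.5 at 6 h (log2 3.32 ± 0.58). Sars, a seryl-tRNA synthetase, was at 219 and 193 CPM at 0 h and 53.2 and 55.8 at 6 h (log2 −1.92 ± 0.32). Wars, a tryptophanyl-tRNA synthetase induced by IFNg, rose from 14.8 and 11.9 CPM to 117 and 82.96 CPM (log2 2.90 ± 0.36), so 2 synthetase genes moved in opposite directions. Heat shock chaperones had 2 of 15 called higher, one of them Hspa1b (6.72 and 6.11 CPM at 0 h and 48.1 and 25.2 at 6 h), and 1 lower; 1 was higher without any 1 library but replicate 2 at 6 h, and none was lower without replicate 2 of DI at 0 h or replicate 1 at 6 h. Ribosomal protein genes had 2 of 43 called lower and a median of 0.14 (−0.42 with scaling to total counts), with none lower without replicate 2 of either time and 1 without replicate 1 at 6 h, and 3 higher without replicate 1 of DI at 0 h. Lysosomal genes had 3 of 37 called in each direction (1 lower without each 6 h library in turn), and Ctsc, which activates granule proteases, was at 125 and 192 CPM at 0 h and 605 and 447 at 6 h (log2 1.73 ± 0.27). Proteasome subunits had 8 of 31 called higher and none lower (median 0.55), but 1 with the compared libraries alone, with scaling to total counts and without replicate 2 of DI at 0 h, and 4 without each 6 h library in turn. Clock genes had 2 of 15 called lower, Tef and Per3, and none without replicate 2 of either time, but 1 without replicate 1 of DI at 0 h and 5 without replicate 1 at 6 h. Of 10 reference genes, 5 were called higher, among them Actb (5947 and 9899 CPM at 0 h and 13824 and 19389 at 6 h, log2 1.07 ± 0.30); 2 were called without replicate 2 of DI at 0 h, 3 without replicate 2 at 6 h, and none with scaling to total counts.

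**Figure D2:**
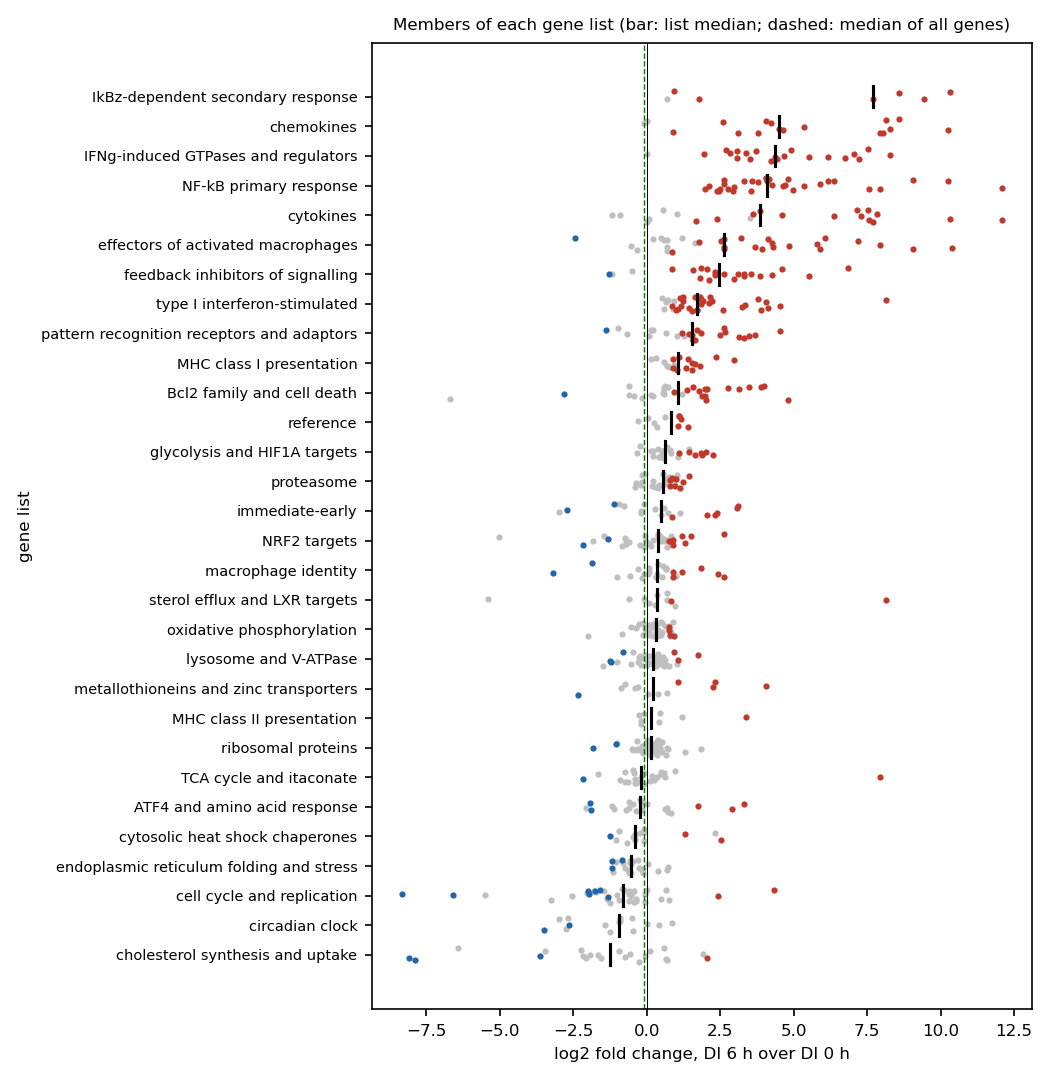
Log2 fold change of each tested member (points) of 30 gene lists in pretreated macrophages, 6 h over 0 h, on the horizontal axis, with red for called higher, blue for called lower and grey for not called. The black bar is the list median and the dashed line the median of all genes (−0.10); medians run from −1.25 for cholesterol synthesis to 7.69 for IkBz-dependent genes.

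The 14 genes with the largest rise, among called genes of at least 20 CPM without overlap, were Serpina3f, Il1b, Heatr9, Cnn3, Nos2, Mycl, Il6, Serpinb2, Cxcl1, Upp1, Arid5a, Ptgs2, Cxcl9 and Cxcl10. Several started from no count. Serpina3f, a serine protease inhibitor of the alpha-1-antichymotrypsin cluster, was at 0 in both libraries at 0 h and 131 and 108 CPM at 6 h, at least 225-fold higher. It belongs to a multigene family whose members may share reads. Heatr9 was at 0 in both libraries at 0 h and 36.4 and 66.3 CPM at 6 h (at least 96.8-fold). Cnn3, an actin-binding calponin gene, was at 0 in both libraries at 0 h and 38.6 and 27.5 CPM at 6 h (at least 62.3-fold). Mycl, a MYC family transcription factor, was at 0 in both libraries at 0 h and 27.7 and 31.1 CPM at 6 h (at least 55.5-fold). Serpinb2, the inhibitor PAI-2, was at 0 in both libraries at 0 h and 33.1 and 20.95 CPM at 6 h (at least 50.96-fold). Arid5a, which stabilises Il6 mRNA, was at 0 in both libraries at 0 h and 24.2 and 20.7 CPM at 6 h (at least 42.4-fold). The uridine phosphorylase gene Upp1 was at 0.177 and 0.115 CPM at 0 h and 189 and 167 at 6 h; with pooled counts of 2 and 1510 the ratio was 1289-fold (95% exact counting interval 356 to 10650.0). These genes thus had few or no counts in unstimulated pretreated cells at this depth and were detected in both 6 h libraries.

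The 14 largest falls, by the same rule, were those of Arhgap19, Gcnt1, Etv5, Nanos1, Otulinl, Rrp1b, Nav2, Dkc1, Snx24, Snx30, Nop2, Tbc1d31, Rassf5 and Arhgap18. Arhgap19, a RhoA GTPase-activating protein, was at 63.97 and 47.6 CPM at 0 h and 0.205 and 0 at 6 h; pooled counts were 775 and 1, a ratio of 454-fold (95% exact counting interval 81.2 to 17960.0). Nav2, a cytoskeleton-associated gene, was at 88.9 and 105 CPM at 0 h and 4.93 and 5.096 at 6 h (log2 −4.27 ± 0.34). Gcnt1, which branches O-glycans, was at 43.7 and 32.5 CPM at 0 h and 0.822 and 0 at 6 h (log2 −6.28 ± 0.67). Etv5, an ETS transcription factor, was at 30.6 and 16.5 CPM at 0 h and 1.03 and 0 at 6 h (log2 −5.28 ± 0.63). All 4 had at most 5.10 CPM in the 6 h libraries. Dkc1, which encodes dyskerin of box H/ACA ribonucleoproteins, was at 36.1 and 56.4 CPM at 0 h and 2.47 and 3.96 at 6 h (log2 −3.87 ± 0.42). Nop2, an rRNA methyltransferase gene, was at 10.2 and 35.04 CPM at 0 h and 2.06 and 1.42 at 6 h (log2 −3.68 ± 0.71). Rrp1b, a nucleolar protein gene, was at 19.97 and 35.7 CPM at 0 h and 1.85 and 0.849 at 6 h (log2 −4.30 ± 0.64). The sorting nexin genes Snx24 (59.9 and 53.8 CPM at 0 h and 2.06 and 6.51 at 6 h) and Snx30 (116 and 95.1 CPM at 0 h and 8.01 and 7.93 at 6 h) fell (log2 −3.78 ± 0.42 and −3.72 ± 0.37). All 28 of these largest rises and falls remained called in each alternative run. They were picked by size and call from the same libraries, so this is no separate test.

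The 4 libraries are the ends of a time course, and the libraries between show when the 6 h state was reached. In pretreated cells Il6 was at 1.41 and 2.51 CPM at 1 h, 17.02 and 29.4 CPM at 2 h and 24.6 and 27.04 CPM at 4 h, so a level of this order was present from 2 h on. Il12b was at 2.12 CPM or less through 4 h and at 3.29 and 5.95 CPM at 6 h, where Ctrl cells had 1505 and 892 CPM. Nfkbiz peaked earlier, at 764 and 536 CPM at 1 h and 885 and 758 CPM at 2 h, and had come down by 6 h. Cxcl1, in contrast, was at 32.1 and 34.6 CPM at 1 h and 152 and 131 CPM at 4 h and was highest at 6 h. Acod1 and Rsad2 were highest on average at 4 h, with 31195 and 23812 CPM and 29534 and 31496 CPM. Nav2 was at 136 and 134 CPM at 1 h, 62.6 and 60.1 CPM at 2 h and 7.56 and 11.4 CPM at 4 h, so both libraries at 4 h were below both at 0 h. Steps between these times were not tested here.

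**Figure D3:**
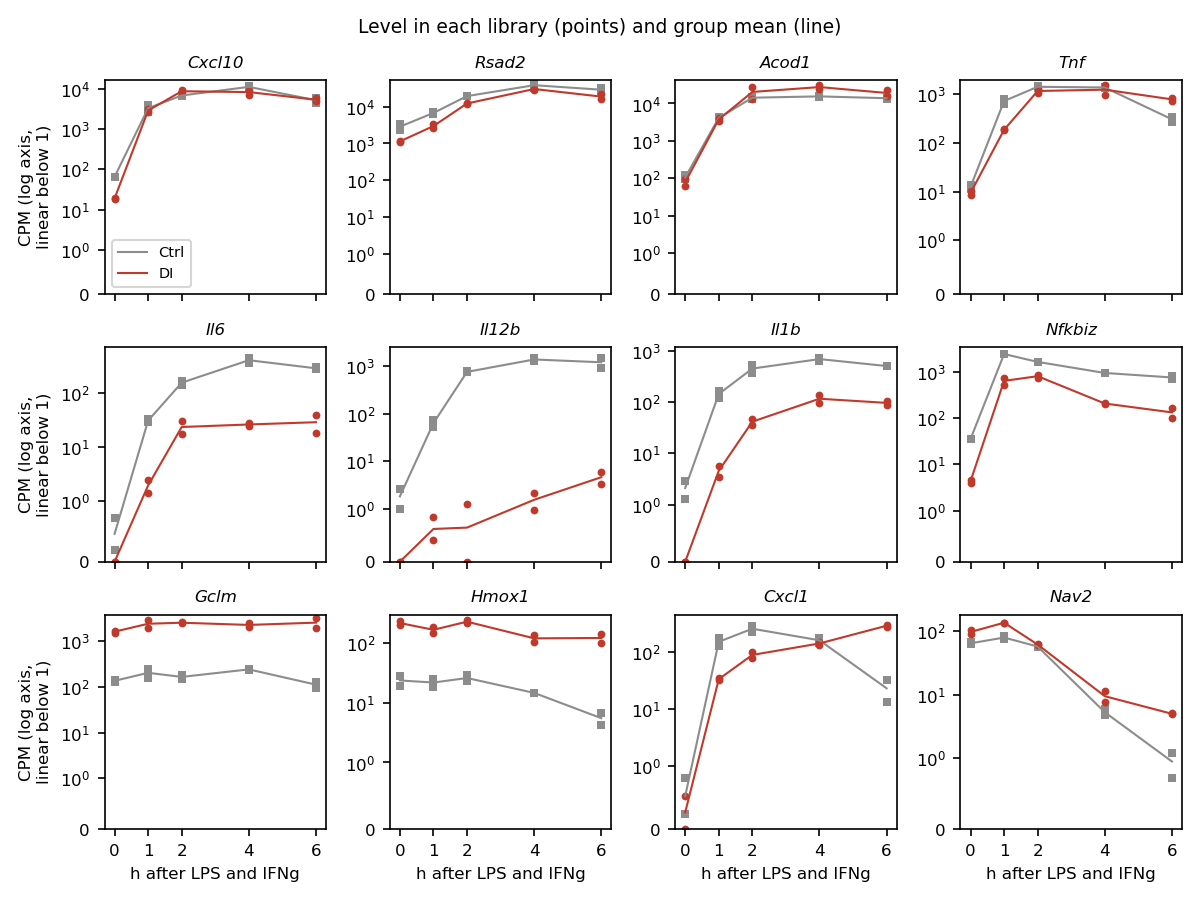
Level in CPM (vertical axis, logarithmic above 1 and linear below) of 12 genes at 0, 1, 2, 4 and 6 h after LPS and IFNg (horizontal axis), with each library as a point and lines through the mean of the 2 libraries of a group, red for pretreated and grey for Ctrl cells. Il6 and Il12b lie below Ctrl at all stimulated times, and Gclm and Hmox1 lie above Ctrl at all times, with Gclm at 0 h at 1544 and 1725 CPM in pretreated and 132 and 142 CPM in Ctrl cells.

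The same 6 h of stimulus without the compound gave a response shared in part, more for rises than for falls. In Ctrl cells 2826 genes (26.5%) were called, 1626 (15.2%) higher and 1200 (11.3%) lower (1818 to 1947 without 1 of its libraries). Of the genes that rose in pretreated cells 955 also rose in Ctrl cells, which is 79.6% of the pretreated and 58.7% of the Ctrl list, and of those that fell 532 were shared, 56% and 44.3%. The 2 responses share no library. Across genes the log2 fold changes correlated with a Pearson r of 0.636 over 10663 genes and 0.828 over 5986 genes of at least 20 CPM in at least 1 of the 4 groups, a description across genes that are not independent. Whether the response itself differed was tested as the DI change minus the Ctrl change, called the response difference: 165 genes (1.55%) were called, 61 (0.572%) more positive and 104 (0.975%) more negative in pretreated cells. That count was 62 with the compared libraries alone and 326 by DESeq2's Wald test. It was 90 and 61 without replicate 1 and replicate 2 of Ctrl at 0 h, 69 and 79 without those of Ctrl at 6 h, and 99 without replicate 2 of DI at 6 h. Calls above the threshold in one response and not in the other, without a called response difference, are not shown to differ.

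**Figure D4:**
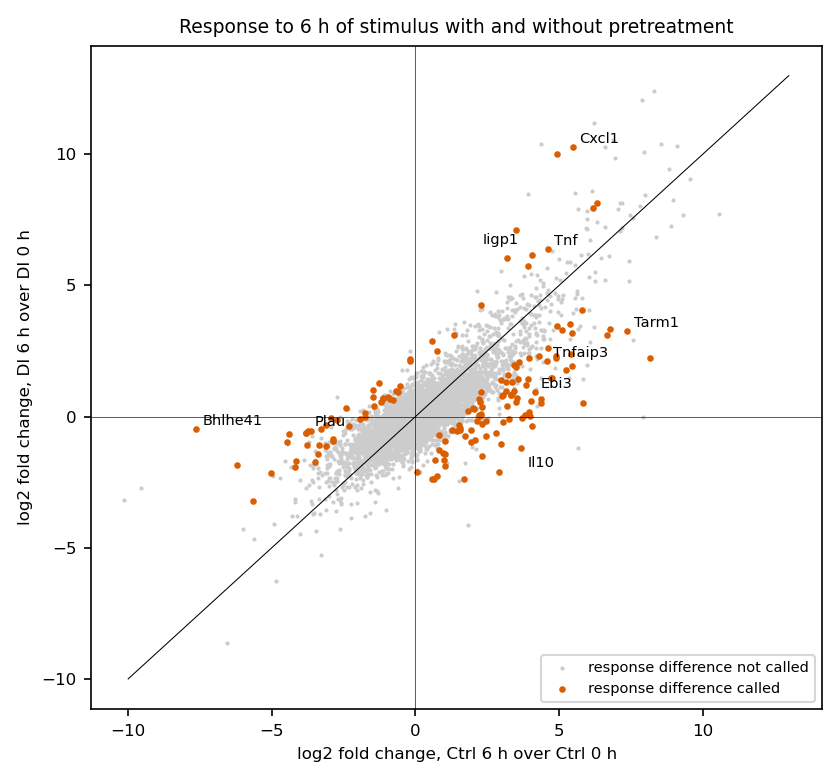
Log2 fold change from 0 to 6 h in pretreated cells (vertical axis) against that in Ctrl cells (horizontal axis) for tested genes of at least 20 CPM in at least 1 of the 4 groups; orange points are genes with a called response difference, and the diagonal marks equal change. Ebi3, Tarm1 and Tnfaip3 lie below the diagonal, and Bhlhe41, Plau, Cxcl1, Tnf and Iigp1 above it.

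The response difference of 9 named genes was called in each of the 19 alternatives run. Plau, the urokinase gene, was at 71.4 and 56.02 CPM at 0 h and 47.1 and 40.8 at 6 h in pretreated and 103 and 163 CPM at 0 h and 9.66 and 10.2 at 6 h in Ctrl cells, a response difference of 3.21 ± 0.58 (edgeR adjusted p 0.00361). It fell in Ctrl cells and had no called change in pretreated cells. Ebi3 went to 337 and 409 CPM at 6 h in Ctrl cells from 21.8 and 19.96 CPM (−3.23 ± 0.39). Tnfaip3 was at 15.3 and 18.4 CPM at 0 h and 432 and 369 at 6 h in Ctrl cells (−2.47 ± 0.48), a larger rise than in pretreated cells from a lower start. Tarm1, an activating receptor of myeloid cells, was at 28.1 and 17.2 CPM at 0 h and 221 and 209 at 6 h in pretreated and 0.2399 and 1.31 CPM at 0 h and 122 and 131 at 6 h in Ctrl cells (−4.13 ± 0.59), so its smaller rise with pretreatment came from a higher start and ended at a higher level. Iigp1 was at 276 and 261 CPM at 0 h and 4743 and 4244 at 6 h in Ctrl cells and rose more in pretreated cells (2.11 ± 0.39), from a lower start. Bhlhe41, a transcriptional repressor of the clock, was at 33.8 and 23.7 CPM at 0 h and 15.2 and 26.05 at 6 h in pretreated and 23.6 and 49.1 CPM at 0 h and 0 and 0.299 at 6 h in Ctrl cells (7.14 ± 0.94), where pooled counts fell from 782 to 1, a ratio of 214-fold (95% exact counting interval 38.3 to 8467). Saa3, of the IkBz-dependent list, reached 739 and 829.8 CPM in Ctrl cells and 64.1 and 33.7 CPM in pretreated cells (−3.68 ± 0.54). Slc16a10, an aromatic amino acid transporter gene, and Fam107b complete the 9, with changes of opposite sign with and without pretreatment. The call of the pretreated change itself was lost in 7 of 16 alternatives for Slc16a10 and in 8 for Fam107b.

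Other response differences rested on fewer settings. Tnf rose more with pretreatment (1.77 ± 0.39), with 269 and 345 CPM at 6 h in Ctrl cells against 862 and 717 CPM, and so did Cxcl2 (1.76 ± 0.42), Cxcl10 (1.82 ± 0.36) and Cxcl1 (4.78 ± 1.01). The call was lost for Tnf without replicate 2 of Ctrl at 0 h, replicate 1 of Ctrl at 6 h or replicate 1 of DI at 0 h, for Cxcl10 without replicate 1 of Ctrl at 6 h, and for Cxcl1 without replicate 2 of Ctrl or of DI at 0 h. The Ctrl libraries at 6 h held 13.2 and 32.9 CPM of Cxcl1, after 228 and 286 CPM at 2 h. Il10 reached 52.6 and 71.7 CPM in Ctrl cells and 1.03 and 0 CPM in pretreated cells (−4.86 ± 1.15). Hif1a rose less with pretreatment (−1.61 ± 0.38). The call was lost without any 1 of 5 of the 8 libraries for Cxcl2, of 6 for Il10 and Hif1a and of 7 for Gclc. Without replicate 1 of DI at 0 h the difference of Cxcl1 was 8.21, and without replicate 1 of DI at 6 h that of Il10 was −9.64. Among NRF2 targets, Gclc (1.80 ± 0.45) and Srxn1 (1.83 ± 0.39) had positive differences: Gclc was at 638 and 589.9 CPM at 0 h and 402 and 738 at 6 h in pretreated cells and 51.3 and 61.99 CPM at 0 h and 13.2 and 16.7 at 6 h in Ctrl cells, so it fell in Ctrl cells, from a lower level. The call of Srxn1 was lost without replicate 1 of Ctrl at 0 or 6 h, replicate 2 of DI at 0 h or replicate 1 of DI at 6 h, and with the compared libraries alone. Il6, Il12b and Nfkbiz (0.52 ± 0.38) had no called response difference, although Il6 at 6 h was at 18.1 and 38.8 CPM with and 292 and 265 CPM without pretreatment: with the 0 h level at or near 0, the fitted change says little about the level reached.

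**Figure D5:**
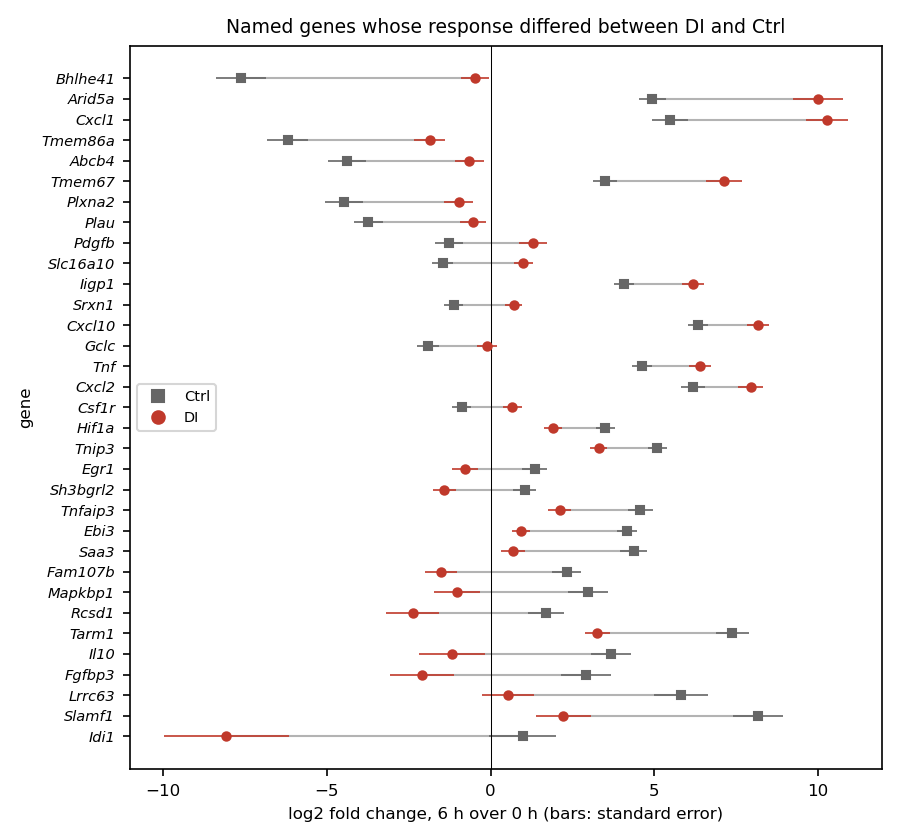
Log2 fold change from 0 to 6 h (horizontal axis) in Ctrl cells (grey squares) and pretreated cells (red circles) for the 33 named genes with a called response difference, with bars of 1 standard error and genes ordered by the difference. The distance between both symbols runs from −9.05 for Idi1 to 7.14 for Bhlhe41.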

How the data were processed

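Barcoded oligo-dT primed, strand-specific RNA libraries were made from 20 macrophage samples, 10 groups of 2, per the labels' protocols; 12 cycles of PCR were used and no molecular identifiers are named. The deposited table holds raw counts per gene, as whole numbers, made by the authors; of tools, STAR, HTSeq and DESeq2 are listed without roles or versions, and of builds mm10, per the submitters' processing notes. Replicate numbers give the library, and whether they mark separate cultures is not labelled.

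Counts of all 20 libraries were fitted with edgeR 4.0.16 (R 4.3.3) after its expression filter and TMM scaling, with 1 coefficient per group, quasi-likelihood tests and Benjamini-Hochberg adjustment over 10663 genes at 0.05. Adjusted p-values are from this fit, and a standard error is the size of the log2 fold change divided by the square root of its F. The residual degrees of freedom were 10 and the biological coefficient of variation 31.5%. A level is a count per 1000000 of the TMM-scaled total. A fold against a group without counts is a bound against 3 counts per library. Counting intervals are exact 95% intervals on reads and leave out the spread between libraries. Both take each read as a molecule, so the counting error is larger than they allow for. On simulated data of 10340 genes, 0 of 67 genes changed 1.5-fold, 5 of 67 changed 2-fold and 39 of 66 changed 4-fold were recovered, with 4 false calls. The simulation gave pretreated and Ctrl libraries the same spread and changed only these genes. In the real data the pretreated libraries were more spread and far more genes were called, so these rates describe the simulation only. An uncalled gene may have changed.

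Named genes were the 14 largest rises and 14 largest falls among called genes of at least 20 CPM without overlap, a panel, up to 4 members of each list by p, and the 8 largest response differences each way; predicted genes and pseudogenes were left out, and 36 genes were added after their values were seen. Results for a few genes are not reported here. The gene lists, panel and members were chosen with earlier results of these data known. Alternatives used DESeq2 1.42.0 and limma 3.58.1. Promoters came from the RefSeq table, matched by symbol for 8484 genes, of which 1734 had more than 1 and the first was used.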

Additional observations from a re-analysis of the deposited data

Results flagged for a closer look

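Each result below is flagged because the change from 0 to 6 h differed between pretreated and Ctrl cells by edgeR's test of the difference itself, adjusted p under 0.05 over all 10663 genes, and each value is the response difference in log2 units with its standard error, DI minus Ctrl.

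Inflammatory mediators and their regulators moved in both directions. More positive in pretreated cells were Cxcl1 (4.78 ± 1.01), Arid5a (5.06 ± 1.20), Cxcl10 (1.82 ± 0.36), Cxcl2 (1.76 ± 0.42), Tnf (1.77 ± 0.39) and Iigp1 (2.11 ± 0.39). More negative were Tnfaip3 (−2.47 ± 0.48), Tnip3 (−1.79 ± 0.35), Ebi3 (−3.23 ± 0.39), Il10 (−4.86 ± 1.15), Saa3 (−3.68 ± 0.54), Slamf1 (−5.95 ± 1.24), Tarm1 (−4.13 ± 0.59) and Hif1a (−1.61 ± 0.38). Tnfaip3 and Tnip3 encode inhibitors of NF-kB signalling, and in pretreated cells Tnfaip3 started higher and Tnip3 lower than in Ctrl cells. Tnip3 was at 32.2 and 24.9 CPM at 0 h and 306 and 254 at 6 h with and 72.9 and 60.3 CPM at 0 h and 2269.6 and 2266 at 6 h without pretreatment. Slamf1, a receptor of the SLAM family, was at 0 and 0.922 CPM at 0 h and 3.29 and 1.699 at 6 h with and 0.5598 and 0.302 CPM at 0 h and 141 and 126 at 6 h without it.

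Genes that fell in Ctrl cells with no called fall in pretreated cells include Bhlhe41 (7.14 ± 0.94), Plau (3.21 ± 0.58), Plxna2 (3.50 ± 0.74), Abcb4 (3.74 ± 0.74), Gclc (1.80 ± 0.45) and Csf1r (1.55 ± 0.40). Abcb4, a phospholipid transporter gene, was at 16.8 and 30.8 CPM at 0 h and 11.9 and 18.7 at 6 h with and 30.1 and 25.5 CPM at 0 h and 1.43 and 1.196 at 6 h without pretreatment. Csf1r was at 221 and 131 CPM at 0 h and 301 and 256 at 6 h with and 229 and 203 CPM at 0 h and 103 and 131 at 6 h without. Tmem86a (4.34 ± 0.80) fell in both and fell less with pretreatment, Tmem67 (3.63 ± 0.69) rose in both and rose more, and Srxn1, an NRF2 target, had a difference of 1.83 ± 0.39. In Tmem67 the pretreated 0 h libraries held 3 counts and the 6 h libraries 260, a ratio of 148-fold (95% exact counting interval 50.1 to 722).

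The other differences were negative or of opposite directions: Mapkbp1 (−4.02 ± 0.92), Lrrc63 (−5.30 ± 1.12), Fgfbp3 (−5.01 ± 1.23), Idi1 (−9.05 ± 2.24) and Egr1 (−2.13 ± 0.55), and Rcsd1 (−4.06 ± 0.98), Fam107b (−3.85 ± 0.65), Sh3bgrl2 (−2.46 ± 0.49), Pdgfb (2.56 ± 0.61) and Slc16a10 (2.47 ± 0.44). The size for Idi1 rests on 0 counts in both pretreated 6 h libraries and is no bound; 2 of its 19 alternatives gave no value.

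Many of these calls depended on single libraries. Out of the 19 alternatives (17 for Idi1), the call was lost in 13 for Egr1, 11 for Csf1r, 10 for Idi1 and Gclc, 9 for Arid5a, Fgfbp3, Il10 and Rcsd1, 8 for Cxcl2 and Hif1a, 7 for Mapkbp1, 6 for Pdgfb, 5 for Cxcl1, Srxn1 and Tnf, 4 for Lrrc63, Plxna2 and Slamf1, 3 for Abcb4, 2 for Sh3bgrl2, Tmem67, Tmem86a and Tnip3 and 1 for Cxcl10. Csf1r and Idi1 lost it without any 1 of the 8 libraries but replicate 1 of DI at 0 h. Fgfbp3 and Mapkbp1 lost it without any 1 but replicate 1 of DI at 0 h or at 6 h. Egr1 lost it without any 1 but replicate 1 of DI at 0 h and replicate 2 of Ctrl at 6 h. Arid5a lost it without either replicate at 0 h of Ctrl or of DI and without replicate 2 of Ctrl at 6 h. Lrrc63 lost it without replicate 2 of Ctrl at 0 h or replicate 1 at 6 h. Slamf1 lost it without replicate 2 of Ctrl at 0 h and without replicate 2 of DI at 0 h, where its difference was −1.33 (edgeR adjusted p 0.992). Abcb4 lost it without each Ctrl library at 6 h in turn, Plxna2 without replicate 2 of Ctrl or of DI at 6 h, Tmem86a without replicate 2 of Ctrl at 6 h, and Tnip3 and Sh3bgrl2 without replicate 2 of Ctrl at 0 h. Without replicate 1 of DI at 6 h the difference was −10.03 for Fgfbp3, −10.90 for Mapkbp1 and −9.495 for Rcsd1, and without replicate 1 of Ctrl at 6 h it was 5.75 for Plxna2. With counts divided by the estimated reads per molecule that of Tmem67 was 1.96 (edgeR adjusted p 0.258).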

How the results depend on the processing

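For the 6 h change in pretreated cells, 1004 genes were called with the compared libraries alone and 1243 with the 10 pretreated libraries alone, against 2149, and 1495 to 1927 without 1 of the 4 libraries. For the Ctrl change, 4630 were called with the compared libraries alone and 4577 with scaling to total counts, against 2826, and 1818 to 1947 without 1 library. For the response difference, 273 were called without the filter on low counts, 326 by DESeq2's Wald test and 62 with the compared libraries alone, against 165, and 61 to 197 without 1 library. The causes were not tested. Fits that leave some out hold fewer libraries, and with the compared libraries alone the count fell in pretreated cells and rose in Ctrl cells. Scaling to total counts and leaving out the 3 pretreated libraries with the most genes at 0 were chosen after seeing the data. With scaling to total counts 3091 genes were called in pretreated cells, 1672 of them among the 2149 in the same direction. Of 204 named genes, 159 were called in pretreated cells: 106 kept the call and direction in all 16 alternatives and 53 lost the call in at least 1. Ifnb1 was the exception in direction: its log2 change was 0 without replicate 1 of DI at 6 h and 8.78 without replicate 2. Of 33 called response differences, 9 remained in all 19 alternatives, 24 were lost in at least 1 and none reversed. Low levels were the least certain. Of genes with 4 to 12 reads expected from the other pretreated libraries of all times, 15.4% to 47% were at 0 in the 4 pretreated libraries. Genes off at 1 time can be among these.

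Same-numbered libraries were not paired by the labels. The correlation of their deviations was 0.292 between DI at 0 and 6 h and over 0.1 in 7 of 45 pairs of groups (−0.406 to 0.325), so the numbers were not used. With the replicate number as a block, 2075 genes were called in pretreated cells, 2767 in Ctrl cells and 155 for the response difference.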

Other observations

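The 5 genes called in opposite directions in both responses were picked after their values were seen. Pdgfb, a growth factor for mesenchymal cells, was at 36.2 and 59.8 CPM at 0 h and 99.9 and 136 at 6 h in pretreated and 53.5 and 92.7 CPM at 0 h and 32.2 and 28.4 at 6 h in Ctrl cells. Slc16a10, which carries aromatic amino acids, was at 46.3 and 43.7 CPM at 0 h and 98.6 and 80.98 at 6 h in pretreated and 40.4 and 38.002 CPM at 0 h and 13.6 and 14.6 at 6 h in Ctrl cells. Both rose with pretreatment and fell without it. The other three went the opposite way: Rcsd1, a regulator of actin capping, was at 4.42 and 5.302 CPM at 0 h and 1.64 and 0 at 6 h with and 11.3 and 13.1 CPM at 0 h and 37.6 and 40.95 at 6 h without pretreatment, Fam107b at 8.84 and 9.57 CPM at 0 h and 3.29 and 3.11 at 6 h with and 7.44 and 5.24 CPM at 0 h and 31.9 and 32.3 at 6 h without. Sh3bgrl2 was at 32.7 and 38.8 CPM at 0 h and 13.97 and 12.7 at 6 h with and 34.1 and 19.1 CPM at 0 h and 52.2 and 57.1 at 6 h without. For Slc16a10 and Fam107b the response difference remained called in all 19 alternatives, for Sh3bgrl2 it was lost in 2, for Pdgfb in 6 and for Rcsd1 in 9. The pretreated change on its own was less stable. Its call was lost in 8 of 16 alternatives for Fam107b and Rcsd1, 7 for Slc16a10 and Pdgfb and 1 for Sh3bgrl2, with no change of sign.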
